A study of Homo sapiens with 6 samples.

Results

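HOX genes encode homeodomain transcription factors that give cells their identity along the head-to-tail axis. In humans they lie in 4 clusters, HOXA, HOXB, HOXC and HOXD, and within a cluster the genes are numbered by paralog group, from 1 at the end used in the head and hindbrain to 13 at the end used in the tail, distal limb and urogenital tract. The clusters are classical targets of Polycomb: Polycomb Repressive Complex 2 (PRC2) trimethylates histone H3 on lysine 27 (H3K27me3) over silent stretches, while trimethylation of lysine 4 (H3K4me3) marks the promoters of active genes, and a gene that carries both marks is often called bivalent. The 38 HOX genes described here were chosen by name, 10 of HOXA, 10 of HOXB, 9 of HOXC and 9 of HOXD, among 56638 genes of a ChIP-seq count table, and all 38 were found in it.

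All libraries were made from G401, a cell line of malignant rhabdoid tumor in which SMARCB1, a core subunit of the SWI/SNF chromatin remodeling complex, is missing. Cells received DMSO or 3 µM MAK683, a compound that binds the EED subunit and inhibits PRC2, for 3 days, and both treatments therefore share the SMARCB1 loss. For each treatment there was 1 library of H3K27me3, 1 of H3K4me3 and 1 of input (chromatin sequenced without antibody), 6 in all. No comparison had a replicate check, no p-value was computed, and the intervals given are exact 95% Clopper-Pearson intervals that cover counting error only.

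Library totals lay between 13308099 and 21281877 counts. SMARCB1 had 0 counts in both inputs, which allows up to 0.178 CPM (counts scaled to the library total) in DMSO and 0.154 CPM in MAK683, and between 0 and 4 counts in the other 4 libraries. A level is the CPM of a mark divided by the CPM of the input of the same treatment, so that gene length cancels between genes, and it was taken where the inputs of both treatments summed to 10 counts or more. A change is the log2 ratio of MAK683 to DMSO counts minus the median of all genes, which was -0.44 over 29931 genes for H3K27me3 and -0.11 over 30028 genes for H3K4me3. The deposited counts carry no spike-in scaling. A change is therefore relative to other genes, and a level is scaled within its own libraries. Neither gives the absolute amount of a mark lost between treatments. The paper, whose methods describe a Drosophila spike-in, reports that H3K27me3 was depleted across the genome after MAK683 in G401.

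Only 22 of the 38 HOX genes had any counts. HOXA4, HOXA5, HOXA6, HOXB3, HOXB4, HOXB5, HOXB6, HOXB8, HOXB9, HOXC5, HOXC6, HOXC8, HOXC9, HOXD4, HOXD8 and HOXD9 were at 0 in all 6 libraries, input included. The same 16 are the members for which GENCODE release 44 (GRCh37) leaves no base free of another gene, and with no input counts the table gives no value of either mark for them. In the 22 genes with counts, between 2.57% and 100% of the span was shared with no other gene (median 73.0%), and both inputs together held from 3 counts at HOXA10 to 949 at HOXD3 (median 77.5). The middle of the clusters was lost most: of 15 genes of paralog groups 4 to 8 only HOXA7, HOXB7 and HOXC4 could be measured, against 6 of 7 genes of groups 1 to 3 and 11 of 16 of groups 9 to 13. Levels could be given for 20 genes, since HOXA10 and HOXC10 fell below the input minimum. The outermost annotated start lay in unshared sequence in 9 of the 22, and in the other 13 it was shared with another gene.

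The 4 promoters printed next belong to genes whose marks in unshared sequence differ most clearly within and between clusters. HOXA11 and HOXA13 are neighbors on either side of a switch between marks, and HOXD11 and HOXD13 carried both. Each window runs from 250 bases before to 50 bases after the RefSeq start, which for HOXD11 lies inside the GENCODE span, and each was located by exact match on GRCh37 at chr7:27224802-27225101 (HOXA11, minus strand), chr7:27239661-27239960 (HOXA13, minus strand), chr2:176971758-176972057 (HOXD11, plus strand) and chr2:176957199-176957498 (HOXD13, plus strand). Capitals mark CpG dinucleotides (CG, the same on both strands), the feature of promoters that PRC2 and H3K4 methyltransferases are both known to favor.
HOXA11: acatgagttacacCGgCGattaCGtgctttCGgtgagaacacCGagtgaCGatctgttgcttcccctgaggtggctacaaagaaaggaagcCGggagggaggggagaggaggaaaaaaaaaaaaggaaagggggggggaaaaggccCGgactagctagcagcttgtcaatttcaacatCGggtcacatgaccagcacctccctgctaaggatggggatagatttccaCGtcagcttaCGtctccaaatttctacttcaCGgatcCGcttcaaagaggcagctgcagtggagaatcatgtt
HOXA13: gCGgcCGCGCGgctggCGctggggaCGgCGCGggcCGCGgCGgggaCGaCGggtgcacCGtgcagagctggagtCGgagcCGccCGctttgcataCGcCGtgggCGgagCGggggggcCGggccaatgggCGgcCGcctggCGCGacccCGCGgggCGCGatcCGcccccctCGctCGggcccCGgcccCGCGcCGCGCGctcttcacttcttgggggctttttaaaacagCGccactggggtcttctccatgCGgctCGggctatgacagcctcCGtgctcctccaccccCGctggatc
HOXD11: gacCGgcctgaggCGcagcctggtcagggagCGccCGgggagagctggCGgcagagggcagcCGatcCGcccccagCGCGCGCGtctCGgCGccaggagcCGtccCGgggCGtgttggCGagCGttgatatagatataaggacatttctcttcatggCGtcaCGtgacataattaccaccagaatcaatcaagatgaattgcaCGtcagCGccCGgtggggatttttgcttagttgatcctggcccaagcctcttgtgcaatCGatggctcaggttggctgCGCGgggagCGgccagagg
HOXD13: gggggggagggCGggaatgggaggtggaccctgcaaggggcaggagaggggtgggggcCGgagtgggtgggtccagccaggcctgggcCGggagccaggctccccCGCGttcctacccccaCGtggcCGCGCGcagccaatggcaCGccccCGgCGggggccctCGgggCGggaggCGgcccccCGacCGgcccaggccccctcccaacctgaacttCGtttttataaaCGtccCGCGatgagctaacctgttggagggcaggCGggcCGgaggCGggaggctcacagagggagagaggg
HOXA13 held 44 CpGs in 300 bases, more than 95.8% of the 35116 promoters in the RefSeq table. HOXD11 held 27, HOXD13 held 24 and HOXA11 held 13, beside a median of 14 over all promoters, 96.0% of which hold at least 1. Across the 27 entries that matched 20 of the 38 HOX genes the median was 22 CpGs, with a range from 0 to 44. The HOXA11 window lies within the noncoding gene HOXA11-AS, and the HOXA13 window within the noncoding gene HOTTIP. The levels of HOXA11 and HOXA13 therefore come from sequence outside their windows. For this reason CpG number could not be set against the level of either mark here.

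In DMSO the 4 clusters differed in both marks. Summed over its members, HOXD had 2241 H3K27me3, 1150 H3K4me3 and 692 input counts, which put H3K27me3 at 2.85 times input (95% interval 2.61 to 3.10) and H3K4me3 at 1.31 times (1.20 to 1.45). HOXC was the opposite, with 226, 3016 and 452 counts, H3K27me3 at 0.439 times input (0.373 to 0.517) and H3K4me3 at 5.28 times (4.78 to 5.84). HOXA, with 227, 1982 and 206 counts, had H3K27me3 at 0.968 times input (0.798 to 1.17) and H3K4me3 at 7.61 times (6.59 to 8.83). These intervals do not overlap between HOXD and HOXA or HOXC in either mark. The HOXB sum, at 2.00 times input for H3K27me3 (1.74 to 2.31) and 9.23 times for H3K4me3 (8.17 to 10.5), rested on HOXB7, and without that gene H3K27me3 was at 0.685 times input. Likewise H3K27me3 over HOXA without HOXA13 was at 0.471 times input. The other sums also lean on a long gene: HOXD3 held 405 of the 692 HOXD input counts and HOXC4 297 of the 452 in HOXC. As medians of the members, H3K27me3 was at 4.60 times input in HOXD and 0.456 in HOXC. For H3K4me3 these medians were 1.71 and 4.27.

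Counted gene by gene, H3K27me3 was at least 2 times input in 6 of the 20 HOX genes in DMSO (HOXB7, HOXD1, HOXD10, HOXD11, HOXD12 and HOXD13), beside 13.5% of all genes tested. H3K4me3 was at least 2 times input in 15 of 20, beside 21.1%. Both marks passed in 4 of 20 (HOXB7, HOXD1, HOXD11 and HOXD13), beside 1.42%. Most HOX genes are short, and among genes of at most 10 kb the shares were 18.5% for H3K27me3 with 4 of 14 HOX genes, 26.9% for H3K4me3 with 11 of 14, and 3.25% for both with 3 of 14. Over the 20 genes the median log2 level was -0.24 for H3K27me3 and 1.59 for H3K4me3, against -0.62 and -0.32 over 33343 genes. The HOX median of H3K27me3 lay on the other side of the input with median-of-ratios scaling (0.17), with at least 50 input counts (0.12) and with genes at least 50% unshared (0.07), so its side of the input depends on these choices. In MAK683, 4 of 20 had H3K27me3 at least 2 times input (HOXD1, HOXD11, HOXD12 and HOXD13), beside 9.93%, and 12 of 20 had H3K4me3 at that level, beside 20.1%. HOXD1 and HOXB7 have less than 50% of their span unshared, and among genes above that share 2 carried both marks, HOXD11 and HOXD13.

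HOXD was the cluster with H3K27me3 above input at all 6 genes measured, while HOXD4, HOXD8 and HOXD9 had no counts. HOXD13, a regulator of digit and genital development at chr2:176957449-176960672, is the outermost gene and lies wholly in unshared sequence. It had 332 H3K27me3, 149 H3K4me3 and 48 input counts in DMSO and 190, 477 and 56 in MAK683. H3K4me3 was much higher in MAK683, while H3K27me3 was lower and the input about equal. Its H3K27me3 level was 5.99 times input in DMSO (4.48 to 8.41) and 4.91 in MAK683 (3.68 to 6.83), and its H3K4me3 level 2.43 (1.76 to 3.48) and 8.34 (6.41 to 11.4). Of its H3K4me3 counts, 76.2% were in MAK683 (72.7% to 79.5%), where 48.0% of all H3K4me3 counts were. This log2 change of 1.78 was the highest of the HOX genes, and it stood beside a smaller H3K27me3 change of -0.36. HOXD13 thus carried both marks in both treatments, with their order exchanged.

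HOXD11, which acts with HOXA11 in kidney and forearm development, lies nearby at chr2:176968944-176974482. Its H3K27me3, H3K4me3 and input counts were 433, 180 and 54 in DMSO and 196, 267 and 73 in MAK683. H3K27me3 was lower and H3K4me3 higher in MAK683. The log2 change was -0.70 for H3K27me3 (31.2% of its counts in MAK683, 27.6% to 34.9%, against 41.0% of the library totals) and 0.68 for H3K4me3 (59.7%, 55.0% to 64.3%). In levels, H3K27me3 went from 6.95 to 3.90 times input and H3K4me3 from 2.61 to 3.60 times, and both marks stayed above 2 times input. With the change divided by that of the input, the H3K4me3 change of HOXD11 was 0.45, under the 1.5-fold mark.

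In their unshared sequence HOXD10 and HOXD12 had H3K27me3 at least 2 times input in DMSO and H3K4me3 not above input. The outermost annotated start of HOXD10 lies within HOXD11, in shared sequence, so H3K4me3 there may be missing from its counts. A start farther inside, in unshared sequence, would enter them. HOXD10, known for its part in lumbar motor neurons and at chr2:176973518-176984665, had 409 H3K27me3, 119 H3K4me3 and 151 input counts in DMSO and 170, 149 and 170 in MAK683. That is 2.37 times input in H3K27me3 in DMSO (1.97 to 2.89) and 1.46 in MAK683 (1.18 to 1.82), a log2 change of -0.82, the only HOXD gene to drop under 2 times input. H3K4me3 lay below input in both treatments, at 0.626 and 0.872 times. HOXD12, between HOXD13 and HOXD11 at chr2:176964523-176967217, had 91, 26 and 22 counts in DMSO and 72, 29 and 30 in MAK683. Scaled within each library, its H3K27me3 level hardly differed between treatments, at 3.54 times input (2.26 to 6.08) and 3.44 (2.27 to 5.58). This does not show that the absolute amount was kept. Its change of 0.11 was the only positive one in HOXD on this scale. That change turned to -0.11 when divided by the input change and to -0.33 with counts as deposited. So among neighboring HOXD genes the relative H3K27me3 change ran from -0.82 to 0.11, and the interval of the share in MAK683 at HOXD12 (36.4% to 52.1%) did not meet those at HOXD10 (25.7% to 33.3%) and HOXD11.

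At the other end of HOXD the input differed between treatments. HOXD1, at chr2:177053396-177055635 with 0.960 kb unshared, had 178 H3K27me3, 37 H3K4me3 and 12 input counts in DMSO and 108, 37 and 39 in MAK683. Of its input counts 76.5% were in MAK683 (62.5% to 87.2%), against 53.7% of the library totals. HOXD1 had the highest H3K27me3 level of the HOX genes in DMSO, 12.2 times input (7.28 to 25.7), and 3.99 times in MAK683 (2.79 to 6.02), but relative to other genes its counts changed by only -0.28 for H3K27me3 and 0.11 for H3K4me3. Divided by the change of its input these became -1.68 and -1.31, and with both inputs summed its DMSO levels were 2.68 for H3K27me3 and 0.30 for H3K4me3 on the log2 scale, so H3K4me3 no longer passed 2 times input. The values of HOXD1 therefore depend on which input is used. HOXD3, a cervical vertebra gene spanning 36.5 kb at chr2:177001340-177037830, was the best covered member, with 798, 639 and 405 counts in DMSO and 513, 685 and 544 in MAK683. H3K27me3 was modestly above input, at 1.73 times (1.53 to 1.96) and 1.38 (1.22 to 1.56), and H3K4me3 was at 1.25 times in both. In H3K27me3 in DMSO the intervals of HOXD1, HOXD11 and HOXD13 overlap, that of HOXD12 overlaps those of HOXD10, HOXD11 and HOXD13, and HOXD3 lies below HOXD10.

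In its unshared sequence, HOXA switched between marks along its length. From HOXA2 to HOXA11, H3K27me3 was below 1 times input in DMSO, with intervals that include 1 at HOXA2 and HOXA11, and H3K4me3 was above input. HOXA7, a trunk gene at chr7:27193335-27197555, had 12 H3K27me3, 752 H3K4me3 and 28 input counts in DMSO and 13, 623 and 33 in MAK683. Its H3K4me3 level of 20.7 times input (14.6 to 32.2) was the highest of the HOX genes with a level. HOXA11, at chr7:27220776-27224851, had 26, 638 and 34 counts in DMSO and 20, 486 and 55 in MAK683, and its H3K4me3 level went from 14.5 times input (10.5 to 21.6) to 8.65 (6.64 to 11.8). HOXA9, a driver of blood stem cell expansion and of leukemias, at chr7:27202057-27214799, had 4, 326 and 21 counts in DMSO and 2, 165 and 22 in MAK683. Its H3K4me3 change of -0.87 was the lowest of the HOX genes, with 33.6% of its counts in MAK683 (29.4% to 38%), over 1.10 kb of unshared sequence. H3K27me3 at HOXA9 was 0.199 times input, the lowest of the 20 genes in DMSO.

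The genes at the head end of HOXA had weaker H3K4me3. HOXA2, which patterns the hindbrain and the branchial arches, at chr7:27139973-27142305, had 21, 75 and 28 counts in DMSO and 19, 60 and 42 in MAK683, with H3K4me3 at 2.09 times input (1.36 to 3.40) and 1.41 (0.942 to 2.16). HOXA3, needed for thymus and parathyroid, had 10, 108 and 24 counts in DMSO and 12, 75 and 25 in MAK683, from 1.59 kb of its 46.4 kb span. For both genes the MAK683 and DMSO intervals overlap. HOXA10, important in uterus, had 18 and 21 H3K4me3 counts and 3 and 0 input counts, too few for a level.

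HOXA13, the distal limb and genital tract gene at chr7:27233122-27239710, is the next measured HOX gene beyond HOXA11. It had the reverse pattern in its unshared sequence. It had 153 H3K27me3, 65 H3K4me3 and 68 input counts in DMSO and 53, 123 and 78 in MAK683. H3K27me3 was lower and H3K4me3 higher in MAK683, with similar input. H3K27me3 went from 1.97 times input (1.48 to 2.67), just under the threshold of 2, to 0.996 (0.689 to 1.43), and H3K4me3 from 0.759 times (0.530 to 1.08) to 1.56 (1.17 to 2.11). With log2 changes of -1.07 and 1.02, HOXA13 was the only HOX gene whose H3K27me3 was over 2-fold lower relative to all genes. By CPM its H3K27me3 change was -0.99, just short of 2-fold, and after division by the input its changes were -1.05 and 1.03, where HOXD1 was lower still in H3K27me3 (-1.68). Its start site is overlapped by HOTTIP, so the 50 bases of the window printed above that lie within HOXA13 are shared with that gene, and the 250 bases before them lie in HOTTIP alone. By this annotation H3K4me3 at that start does not enter the counts of HOXA13. HOTTIP had H3K4me3 at 4.92 times input in DMSO.

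**Figure D1:**
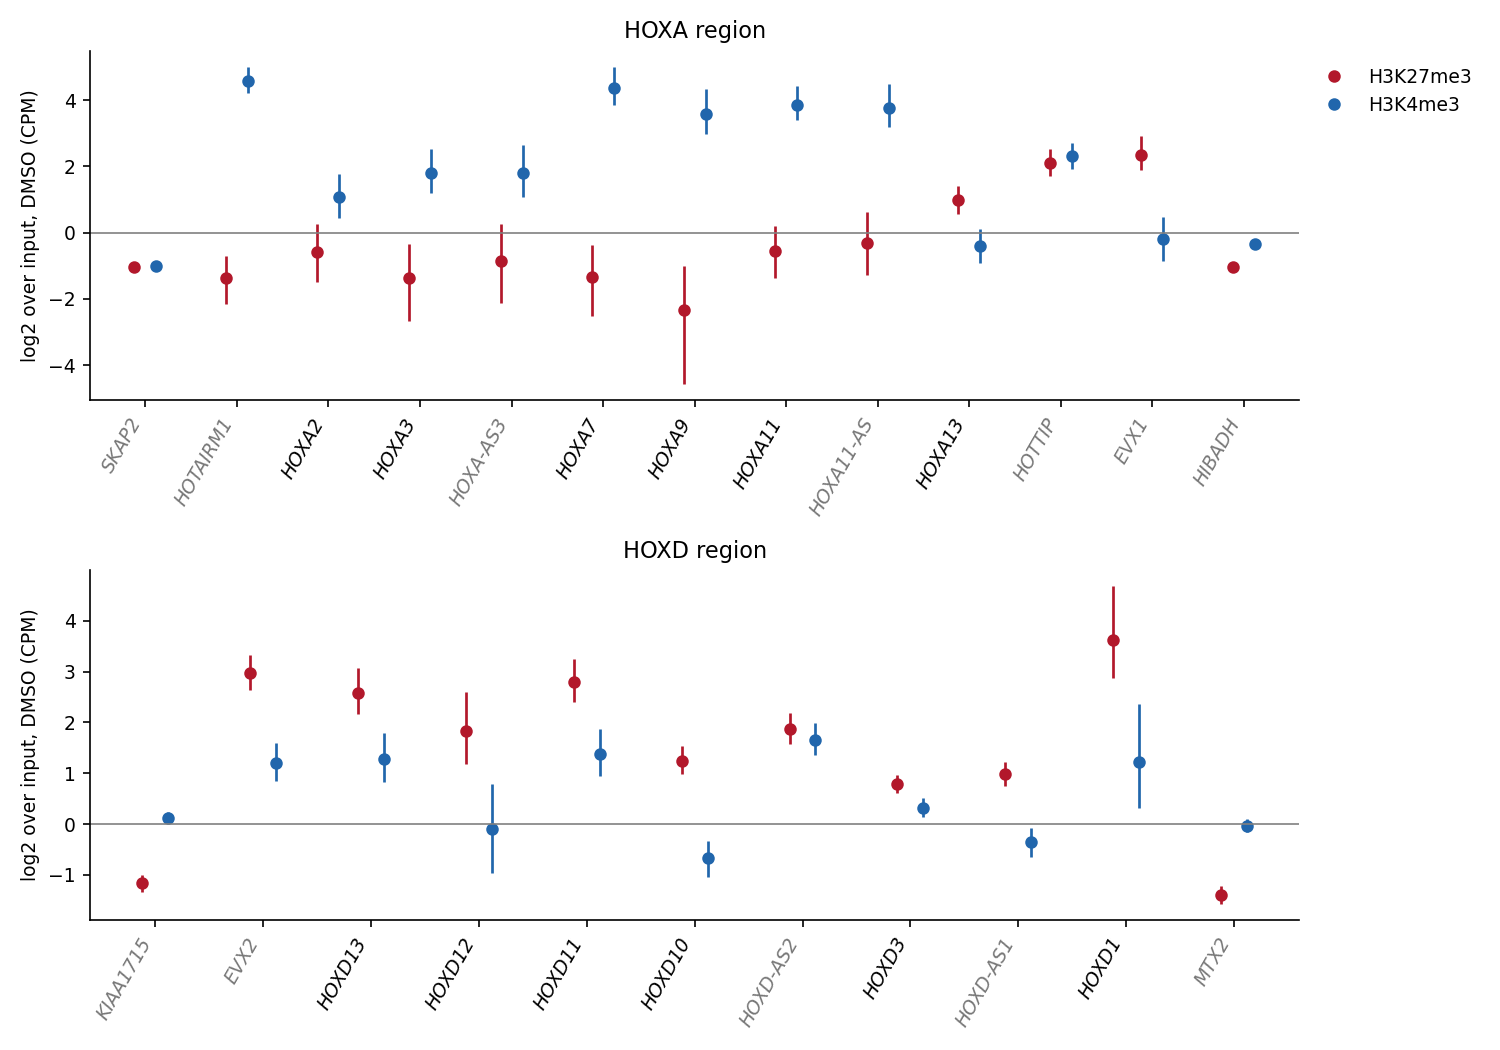
Log2 level over input (CPM) of H3K27me3 (red) and H3K4me3 (blue) in DMSO, 1 library each with 95% counting intervals, for HOX genes (black names), noncoding genes and flanking genes (grey names) in genomic order across the HOXA and HOXD regions. In the unshared sequence of HOXA the marks exchange places between HOXA11 and HOXA13. HOTTIP, which covers the HOXA13 start, lies above input in both marks. In HOXD the raised H3K27me3 spans EVX2 (7.81 times input) to HOXD1 and is absent at KIAA1715 (0.446) and MTX2 (0.381).

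The genes next to HOXA13 and HOXD13 also had H3K27me3 above input in DMSO. EVX1 and EVX2, homeobox genes at the tail ends of HOXA and HOXD, were the only 2 of 16 flanking genes with H3K27me3 at least 2 times input in DMSO, a share near the 13.5% of all genes. EVX1 had 231 H3K27me3, 43 H3K4me3 and 39 input counts in DMSO and 128, 63 and 65 in MAK683. Its H3K27me3 level was 5.12 times input in DMSO (3.69 to 7.51) and 2.86 in MAK683 (2.13 to 3.95). In each treatment this interval lay above that of HOXA13. EVX2 had 735, 239 and 82 counts in DMSO and 365, 511 and 118 in MAK683, with log2 changes of -0.57 for H3K27me3 and 1.21 for H3K4me3. The H3K27me3 intervals of EVX2 overlapped those of HOXD13, but its H3K4me3 level in MAK683, 4.28 times input (3.52 to 5.31), was lower. These 2 were also the only flanking genes with H3K4me3 at least 1.5-fold higher relative to all genes, beside 9.94% of all genes, while PRAC1, with 12 and 2 counts, was the only one of 15 with H3K27me3 at least 1.5-fold lower, beside 8.9%. Farther out, SKAP2, HIBADH, KIAA1715 and MTX2 had H3K27me3 between 0.381 and 0.491 times input in DMSO, so the domains ended within the regions drawn.

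Of 23 noncoding genes inside the clusters, 11 were at 0 in all 6 libraries and 12 could be tested. In DMSO H3K27me3 was at least 2 times input in 2 of 12, beside 13.5% of all genes: HOTTIP, transcribed from the tail end of HOXA, and HOXD-AS2. H3K4me3 passed that level in 9 of 12, beside 21.1%, with HOTTIP at 4.92 times input and HOXD-AS2 at 3.16. HOXA13 (0.759) and HOXD10 (0.626) beside them were lower in H3K4me3, but their outermost annotated starts lie in shared sequence. HOTTIP covers that of HOXA13. The lower values therefore do not show that the mark is missing at those starts. A start farther inside a gene, in unshared sequence, would enter its counts. HOXB-AS4, which overlaps HOXB7, had neither mark, at 0.514 times input in H3K27me3 and 0.367 in H3K4me3. HOTTIP had 319 H3K27me3, 408 H3K4me3 and 65 input counts in DMSO and 155, 428 and 106 in MAK683. HOTAIRM1, at the head end of HOXA, had the opposite pattern, with 24, 1711 and 56 counts in DMSO and 26, 1370 and 82 in MAK683, and its H3K4me3 level of 23.8 times input (18.5 to 32.1) overlapped that of HOXA7. HOTAIR, the HOXC transcript known for its link to PRC2, had 66, 1100 and 164 counts in DMSO and 58, 856 and 184 in MAK683, H3K27me3 below and H3K4me3 above input like HOXC11 beside it.

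Among the measured HOXB genes, HOXB7 alone had H3K27me3 at least 2 times input. HOXB7, a trunk gene at chr17:46684594-46710934 with 12.3 of its 26.3 kb unshared, had 553 H3K27me3, 1415 H3K4me3 and 171 input counts in DMSO and 223, 1244 and 203 in MAK683. Its H3K27me3 was at 2.83 times input in DMSO (2.39 to 3.39) and 1.61 in MAK683 (1.33 to 1.96), with H3K4me3 at 6.52 and 6.07 times. So the unshared sequence of HOXB7 carried both marks in DMSO and chiefly H3K4me3 in MAK683, with log2 changes of -0.87 for H3K27me3 and -0.07 for H3K4me3. Its span encloses HOXB8 and HOXB9 and its outermost annotated start is shared. The summed counts do not show whether both marks lie at the same place. HOXB13, a prostate and tail gene at chr17:46802125-46806112, had 28, 1218 and 57 counts in DMSO and 12, 876 and 65 in MAK683. Its H3K4me3 level of 16.7 times input (13 to 22.5) overlapped those of HOXA7 and HOXA11, and its H3K27me3 change of -0.72 came from few counts, the share in MAK683 of 30.0% having an interval of 16.6% to 46.5% that includes the library totals.

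HOXB1 and HOXB2, both hindbrain genes, differed in H3K4me3. HOXB2, at chr17:46618256-46622471, had 27 H3K27me3, 585 H3K4me3 and 36 input counts in DMSO and 16, 428 and 36 in MAK683, with H3K4me3 at 12.6 times input (9.18 to 18.5) and 11.5 (8.40 to 17.1). HOXB1, at chr17:46605888-46608373, had 30, 48 and 16 counts in DMSO and 26, 33 and 33 in MAK683, with H3K4me3 at 2.30 times input (1.32 to 4.48) and 0.994 (0.595 to 1.66). The higher input count of HOXB1 in MAK683 enters this difference: 67.3% of its input counts were in MAK683, with an interval of 52.5% to 80.1% that includes the library totals.

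The HOXC genes had H3K4me3 and little H3K27me3. HOXC13, a hair follicle gene at the tail end (chr12:54332615-54340328), had 52 H3K27me3, 1194 H3K4me3 and 96 input counts in DMSO and 50, 920 and 112 in MAK683, which put H3K4me3 at 9.76 times input (7.99 to 12.2) and H3K27me3 at 0.480 times (0.333 to 0.674) in DMSO. HOXC4, spread over 39.1 kb at chr12:54410715-54449814, had 146, 1404 and 297 counts in DMSO and 110, 946 and 345 in MAK683. HOXC11, at chr12:54366910-54371427, had 10, 263 and 42 counts in DMSO and 19, 176 and 41 in MAK683. H3K27me3 was below input in all 3, though at HOXC11 in MAK683 (0.687 times) the interval reached 1.20. HOXC12, with 18, 29 and 15 counts in DMSO and 13, 20 and 33 in MAK683, had intervals that include the input in both marks. HOXC10, a hindlimb gene, had 126 and 108 H3K4me3 counts from 0.325 kb of unshared sequence, with 0 H3K27me3 counts in both treatments and 2 and 4 input counts, so H3K4me3 was far above input and H3K27me3 not detectable at this depth.

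The 4 genes of paralog group 13, which all sit at the tail end of their cluster, had different marks. In DMSO, H3K27me3 was at 5.99 times input at HOXD13, 1.97 at HOXA13, 0.480 at HOXC13 and 0.440 at HOXB13, and the intervals of the first 2 exclude each other and those of the last 2. H3K4me3 was at 2.43 times input at HOXD13 and 0.759 at HOXA13, against 9.76 at HOXC13 and 16.7 at HOXB13. In these counts the pair with more H3K27me3 had less H3K4me3. The genes were not measured over like parts. The outermost annotated starts of HOXB13 and HOXD13 are unshared and those of HOXA13 and HOXC13 are shared. After MAK683 the H3K4me3 change was 1.78 at HOXD13 and 1.02 at HOXA13, against -0.26 at HOXC13 and -0.36 at HOXB13. Position along the cluster did not order the levels across all 4 clusters: the median log2 H3K27me3 level in DMSO was 0.06 over 6 genes of paralog groups 1 to 3, -1.21 over 3 of groups 4 to 8 and 0.07 over 11 of groups 9 to 13, each group ranging from below input to above it. With both inputs summed the first and last of these became -0.13 and -0.47, and the last was -0.56 with at least 1 input count and 0.97 with at least 50.

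**Figure D2:**
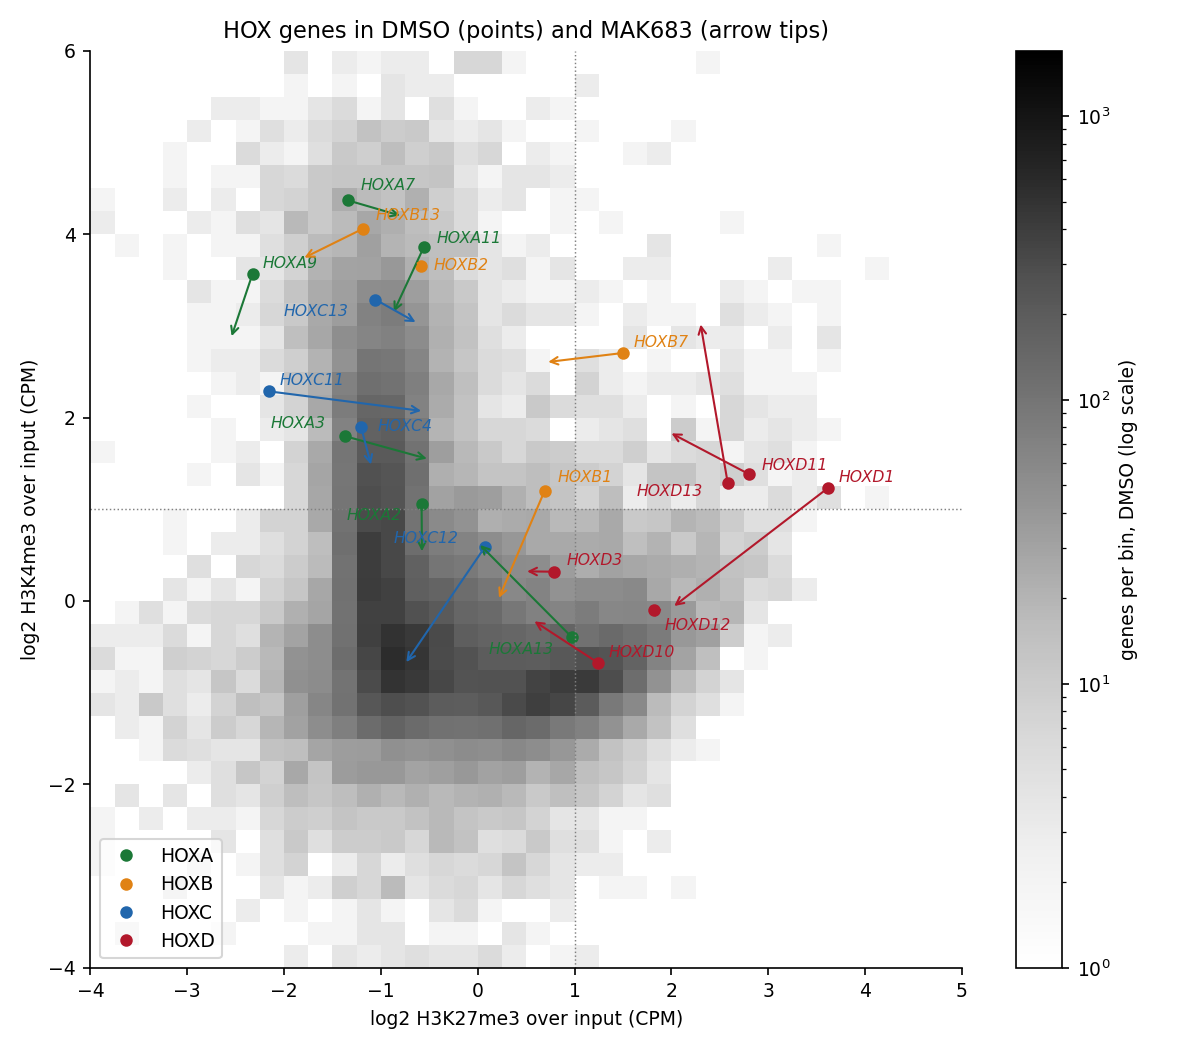
Log2 H3K27me3 (horizontal) against log2 H3K4me3 (vertical) over input (CPM) for 20 HOX genes, from DMSO (points) to MAK683 (arrow tips), over the number of all genes per bin in DMSO (grey, logarithmic); dotted lines mark 2 times input. In DMSO 11 HOX genes lie in the upper left field with 19.7% of all genes, 2 in the lower right, 4 in the upper right with 1.42% and 3 in the lower left, and HOXD13 moves chiefly upward, from 2.43 to 8.34 times input in H3K4me3.

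Between treatments, H3K27me3 was at least 1.5-fold lower relative to all genes in 5 of 19 HOX genes (HOXA13, HOXB7, HOXB13, HOXD10 and HOXD11), beside 8.9% of all genes, and at least 1.5-fold higher in 2 of 19 (HOXA3 and HOXC11), beside 9.03%. Both higher ones had under 20 counts per library, and 0 were left with a minimum of 50 counts. H3K4me3 was at least 1.5-fold lower in 1 of 22 (HOXA9), beside 5%, and at least 1.5-fold higher in 3 of 22 (HOXA13, HOXD11 and HOXD13), beside 9.94%. Among genes of at most 10 kb the shares were higher: 18.9% were lower in H3K27me3, with 3 of 14 HOX genes, and 19.7% were higher in H3K4me3, with 3 of 16. These 2 counts are near those of other short genes. In H3K27me3 1 of 14 was higher, beside 16.1%, and in H3K4me3 0 of 16 were lower, beside 9.68%. With so few genes, these counts do not set the HOX genes apart either. Divided by the change of the input, 6 HOX genes rather than 1 were at least 1.5-fold lower in H3K4me3 (HOXA9, HOXA11, HOXB1, HOXC10, HOXC12 and HOXD1). The H3K27me3 count of lower genes depends on the scale and the threshold, being 9 with counts as deposited and 1 at 2-fold.

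By the interval of the share, H3K27me3 lay below the 41.0% of the library totals at HOXA13, HOXB7, HOXD10, HOXD11 and HOXD13, above it at HOXC11, and included it at the other 13. For H3K4me3 the interval lay above the 48.0% of the totals at HOXA13, HOXD3, HOXD10, HOXD11 and HOXD13. It lay below at HOXA9, HOXA11, HOXB2, HOXB13, HOXC4, HOXC11 and HOXC13, and included the totals at the other 10. The share of all genes on each side was not computed, and the intervals narrow with more counts. These calls therefore describe the members and do not set them apart from other genes. Each of the 5 genes with relatively more H3K4me3 in MAK683 had H3K27me3 above input in DMSO, and each of the 7 with relatively less had it below input. At HOXD3, however, the H3K4me3 change divided by that of the input was -0.01. The H3K27me3 intervals of HOXA11 (0.387 to 1.15) and HOXB2 (0.385 to 1.12) include the input. The other 5 genes with H3K27me3 above input, HOXB1, HOXB7, HOXC12, HOXD1 and HOXD12, had H3K4me3 intervals that included the totals.

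Summed by cluster, 58.8% of HOXD H3K4me3 counts were in MAK683 (57.0% to 60.7%), and 53.8% without HOXD13 (51.7% to 55.9%), against 43.9% for HOXA (42.3% to 45.6%), 44.1% for HOXB (42.9% to 45.4%) and 41.8% for HOXC (40.5% to 43.2%). HOXD was thus on the other side of the library totals from HOXA, HOXB and HOXC. Relative to all genes H3K4me3 was higher in 6 of 6 HOXD genes and lower in 4 of 4 HOXB and 5 of 5 HOXC genes, while HOXA split, with 2 of 7 higher (HOXA10 and HOXA13) and 5 lower. Divided by the input, 4 of 6 HOXD genes were higher, HOXD1 and HOXD3 were lower, and the counts of the other clusters were the same. For H3K27me3 the share was 35.8% in HOXD (34.2% to 37.4%), 30.3% in HOXB (27.3% to 33.4%), 34.4% in HOXA (29.4% to 39.7%) and 45.9% in HOXC (41.1% to 50.8%). Without HOXB7 the HOXB share was 38.8% (30.7% to 47.5%), and without HOXA13 the HOXA share was 47.1% (38.7% to 55.8%), both including the 41.0% of the totals, whereas HOXD without HOXD13 stayed at 35.7%.

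These directions were also seen over all genes of like level, in groups chosen after the data were seen. Genes with H3K27me3 at least 2 times input in DMSO had a median log2 change of -0.33 in H3K27me3 (4410 genes) and 0.21 in H3K4me3 (3810 genes). The 6 HOX genes among them had medians of -0.53 and 0.35. Genes with H3K4me3 at least 4 times input in DMSO had a median H3K4me3 change of -0.23 (3647 genes), where 3300 of 3647 were lower, and the 8 HOX genes among them a median of -0.31, lower in 8 of 8. Where a gene was chosen by the mark whose change is given, the DMSO library enters both the level and the change, and what this adds was not tested. The H3K4me3 change of genes chosen by H3K27me3 shares no library with their level.

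The TALE family supplies the cofactors (PBX, MEIS and PKNOX proteins) that bind DNA together with HOX proteins. None of these 9 genes reached 2 times input in H3K27me3 in either treatment, beside 13.5% of all genes in DMSO and 9.93% in MAK683, although MEIS1 and PKNOX2 came close to it, both at 1.99 times in DMSO. MEIS1 had 3646 H3K27me3, 1104 H3K4me3 and 1613 input counts in DMSO and 2126, 1684 and 1876 in MAK683. Its H3K4me3 change of 0.72 made it the 1 cofactor gene of 9 at least 1.5-fold higher, near the 9.94% of all genes, and its H3K27me3 change was -0.34. PBX2 and MEIS3 had H3K4me3 at least 2 times input in both treatments. These are 2 of 9, near the 21.1% of all genes in DMSO and 20.1% in MAK683. The other genes of the family were between 0.542 and 1.60 times input in DMSO.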

How the data were processed

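Per the submitters' processing notes, the authors trimmed the ChIP-seq reads with Trim Galore 0.4.4 and aligned them with Bowtie2 to hg19 (the same assembly as GRCh37). Picard 2.23.6 removed what the paper calls repeat sequences, and its spike-in section speaks of removed duplicates. The authors assigned reads to genes with featureCounts. They deposited raw counts of whole numbers for 56638 genes, 18839 of which were at 0 in all 6 libraries. The annotation and which features of a gene were counted are not given in the sources used here. A Drosophila spike-in is described in the methods, but the deposited counts do not carry it. Levels were the log2 ratio of CPM to input CPM with a pseudocount of 0.05 CPM, where both inputs summed to 10 counts or more. Changes used a pseudocount of 1 count and genes with at least 10 counts in 1 of both libraries. Thresholds were 2 times input and 1.5-fold.

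Each treatment and antibody had 1 library, so no test between treatments was made. Intervals are exact Clopper-Pearson intervals of the share of counts in 1 of 2 libraries, scaled by the library totals, and reads were not marked by molecule. Spans, starts and overlaps came from GENCODE release 44 on GRCh37, where 33514 names matched by symbol and 1794 by an older symbol (62.3%). Promoter sequences came from a RefSeq table built on a later assembly and were placed on GRCh37 by exact match. Any of the 38 HOX genes could be named, as could listed noncoding genes of the clusters, flanking genes, TALE cofactors and SMARCB1. The members and lists were chosen with earlier results of these data known. Alternatives were other inputs, scales, pseudocounts, filters, thresholds and backgrounds. The computation was tested on simulated data (Python 3.11.15, numpy 2.4.6, pandas 2.3.3, scipy 1.17.1, figures with matplotlib 3.10.9).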

Additional observations from a re-analysis of the deposited data

How the results depend on the processing

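Of 215 alternative values for counts, medians and cluster sums, 186 stayed within the limits set, and of 356 for single genes or backgrounds 327 did. The limits were 1.5-fold for counts, the counting interval for single genes, backgrounds and cluster sums, and a range of ranked member values for medians. In the smallest groups that range holds all members. The median of groups 9 to 13 thus stayed within it even at 0.97, with at least 50 input counts. These tallies therefore say little about how stable the medians are. The sign turned in 12 of 116 log2 medians and 14 of 352 single-gene values, of which 0 had a main value past its threshold. Among them the median H3K27me3 level of the members in DMSO turned from -0.24 to 0.17 with median-of-ratios scaling, 0.12 with at least 50 input counts and 0.07 with members at least 50% unshared, that of paralog groups 1 to 3 from 0.06 to -0.13 with both inputs summed, and that of groups 9 to 13 from 0.07 to -0.47 with both inputs summed and -0.56 with at least 1 input count. With only members at least 50% unshared, both marks were at least 2 times input in 2 genes in DMSO, H3K27me3 was 1.5-fold higher in 1 and H3K4me3 lower in 0; HOXA was at 1.35 times input in H3K27me3 and 4.73 in H3K4me3 with 46.2% of H3K4me3 counts in MAK683, and HOXB at 0.685 and 13.4 times with 38.8% and 41.9% in MAK683. With counts as deposited, H3K27me3 was lower in 9 genes and higher in 1, and the median change of paralog groups 1 to 3 was -0.42. With a 2-fold threshold, H3K27me3 was lower in 1 and higher in 1 and H3K4me3 lower in 0, and with at least 50 counts H3K27me3 was higher in 0. Divided by the change of the input, H3K4me3 was lower in 6 genes and its median over paralog groups 1 to 3 was -0.42. As the median of the members in place of the sum, H3K27me3 was at 0.514 times input in HOXA, 1.04 in HOXB and 4.60 in HOXD, H3K4me3 at 6.41 in HOXA, 4.27 in HOXC and 1.71 in HOXD, and the shares in MAK683 were 47.5% for HOXA and 33.6% for HOXB in H3K27me3 and 42.0% for HOXB and 54.2% for HOXD in H3K4me3. The number of members in each setting is fixed by its own filter, and other causes were not tested.

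With both inputs summed, 12 genes had H3K4me3 at least 2 times input in DMSO and 3 had both marks. The input share in MAK683 lay above that of the totals at HOXC12, HOXD1 and HOXD3, so the difference of their levels between treatments includes that of the input. No paired analysis was possible because each treatment and antibody had 1 library, and for the same reason no replicate could be left out. Depth limits H3K27me3 most, with under 30 counts in DMSO at HOXA10 and HOXC10 and at HOXA2, HOXA3, HOXA7, HOXA9, HOXA11, HOXB2, HOXB13, HOXC11 and HOXC12.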
